A study of Mus musculus with 8 samples.

Results

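Interferon-stimulated genes are the antiviral effectors and sensors whose transcription interferons raise, and 45 of them were followed here, chosen by name from a list of such genes. The members and the lists used below were chosen with earlier results of these data known. All 45 were in the count table of 53700 genes, 27 of them had a mean of 10 or more raw counts over the libraries, and 18 had a lower mean. The cells were LLC, a mouse Lewis lung carcinoma line grown in DMEM with serum and penicillin-streptomycin. The study's methods name no drug or interferon treatment for the RNA-Seq. RNA-Seq libraries were made from wild-type (WT) cells and from FIH-KO cells after 16 hours at 21% O2 (normoxia) or 1% O2 (hypoxia), with 2 libraries for each of WT normoxia, FIH-KO normoxia, WT hypoxia and FIH-KO hypoxia. FIH is factor inhibiting HIF, an asparagine hydroxylase that restrains hypoxia-inducible factors. The FIH-KO cells came from a CRISPR/Cas9 guide against exon 2 of Hif1an, the mouse FIH gene, and single-cell dilution. The number of clones in the RNA-Seq and the guide carried by the WT cells are not given in the sources used here. Nothing says that the libraries of a group came from separate cultures, so the p-values measure the spread between these libraries, which may be technical. Genotype cannot be told apart from other differences between a derived line and its parent.

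Type I, type II and type III interferons bind separate receptors on the cell surface. Receptor-bound JAK kinases then phosphorylate STAT transcription factors, of which STAT2 acts with IRF9 in a complex that binds the interferon-stimulated response element (ISRE) in promoters, whereas STAT dimers bind the gamma-activated site (GAS). The induced genes recognise viral RNA, degrade it, block translation, trap budding virus or tag proteins with ubiquitin-like ISG15, and many tumor lines keep a low level of them without added interferon.

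The promoters were searched for the letters of these sites. The list was made of genes that interferons raise, and the ISRE serves that induction, so its share here is not independent of the list. The window ran from 250 bases before to 50 bases after the annotated start of the canonical transcript, in GRCm39, and both strands were read. The ISRE core GAAANNGAAA stood in 22 of the 45 windows (48.9%) and in 829 of 21613 windows of protein-coding genes (3.84%). The GAS core TTCNNNGAA stood in 8 of the 45 (17.8%), against 8.85% of protein-coding genes. The hypoxia response element core, ACGTG or GCGTG, stood in 14 (31.1%), against 47.9%. Among the 11609 windows of tested protein-coding genes, these shares were 3.30% (ISRE), 7.44% (GAS) and 62.6% (hypoxia response element), though the 45 include untested members. The 6 genes below had an ISRE core and the highest mean expression among those that did, and capitals mark the ISRE letters, with 2 overlapping matches run together in Irgm1, Bst2 and Trim21. The stretches are written 5′ to 3′ along the gene's strand. They lie at chr17:79189964-79189993 (minus strand) for Eif2ak2, chr11:48762248-48762312 (minus) for Irgm1, chr12:103400357-103400416 (plus) for Ifi27, chr8:71990196-71990281 (minus) for Bst2, chr7:102214655-102214683 (minus) for Trim21 and chr5:120915755-120915834 (minus) for Oas3.
Eif2ak2: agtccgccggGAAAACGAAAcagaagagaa
Irgm1: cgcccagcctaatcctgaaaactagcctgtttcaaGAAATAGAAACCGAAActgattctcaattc
Ifi27: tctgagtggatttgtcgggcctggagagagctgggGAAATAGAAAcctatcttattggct
Bst2: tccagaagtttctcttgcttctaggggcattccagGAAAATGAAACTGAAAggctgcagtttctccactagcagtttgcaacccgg
Trim21: ctgagagGAAACTGAAAGTGAAAtttgga
Oas3: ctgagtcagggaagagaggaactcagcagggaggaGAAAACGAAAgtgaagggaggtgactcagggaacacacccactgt
A match is a description of letters, not a bound site. The ISRE letters were in 3 of the 9 members that rose in FIH-KO cells at both oxygen levels (Bst2, Ifi27 and Oas3), in 7 of the 11 that rose at 1 level, in 5 of the 11 tested members that did not rise and in 7 of the 14 untested ones.

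The 8 libraries held between 14519731 and 18177016 counts. Hif1an, the targeted gene, had 1231 to 1609 counts in the WT libraries and 584 to 784 in the FIH-KO libraries, and its log2 fold change was -1.20 in normoxia and -0.85 in hypoxia (FDR = 3.1e-05 and 0.00031, where FDR is the Benjamini-Hochberg adjusted p of edgeR's quasi-likelihood test over all genes tested, and calls were made under 0.05). The lung epithelial markers Nkx2-1 and Sftpc were at 0 in every library and Sftpb and Scgb1a1 held at most 2 counts, Epcam was at 0 and Cdh1 at 0 or 1, while Krt8, Krt18 and Vim were abundant. Of 8 leukocyte markers, Adgre1 and Cd3e were at 0 in every library and Ptprc, the pan-leukocyte gene, held 0 to 3 counts. The summed leukocyte markers were 7.71 to 8.29 CPM (normalized counts scaled to the library size) in WT normoxia, 13.9 to 14.2 in FIH-KO normoxia, 17.8 to 18.9 in WT hypoxia and 15.6 to 16.9 in FIH-KO hypoxia. Of the 4 that could be tested, Lyz2, a lysozyme gene, rose in FIH-KO cells (log2 fold change 3.74 in normoxia and 3.75 in hypoxia). Itgax was lower in FIH-KO than in WT cells in hypoxia (-0.67, FDR = 0.035, and -0.25 in normoxia, not called). Csf1r (-0.92 and -0.80) and Cd68 (0.70 and -0.12) were not called between the genotypes. With hypoxia, Csf1r rose by 5.04 in WT and 5.16 in FIH-KO cells (FDR = 0.0015 and 0.0076). Itgax rose with hypoxia by 1.13 and 0.72 (FDR = 0.0023 and 0.049), and Cd68 and Lyz2 were not called with hypoxia. Krt8 (1.02 and 1.00), Vim (0.52 and 0.58) and Fn1 (1.68 and 1.10) were called higher in FIH-KO cells at both oxygen levels. Krt18 (-0.05 and 0.12), Krt19 (-0.05 and 0.49), Cdh2 (0.28 and 0.14), Zeb1 (0.34 and 0.02) and Twist1 (0.05 and -0.01) were not called. The 5 summed mesenchymal markers went from 4459 to 5219 CPM in WT normoxia to 8323 to 9113 in FIH-KO normoxia, and Vim and Fn1 made up most of that sum. Of the fibroblast and endothelial markers tested, Pdgfra (-0.87, FDR = 0.032) and Cdh5 (-2.62, FDR = 0.0051) were lower in FIH-KO than in WT hypoxia. Neither was called in normoxia (-0.61 and -1.46), and Col1a1 (0.99 and 1.31) and Dcn (1.19 and 1.22) were not called. The part of all these markers in the results was not tested.

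Of the 45 genes, 31 were expressed enough for edgeR's test. The other 14 held at most 8 counts in any library: Ifit1, Ifit3b, Oas1a, Oas2, Oasl1, Oasl2, Ifih1, Zbp1, Mx1, Mx2, Rsad2, Cmpk2, Gbp3 and Ifi44. They include Rsad2 (viperin), Ifih1 (MDA5), a sensor of long double-stranded RNA, and Mx1 and Mx2, of a family that blocks virus particles inside the cell. Both Mx genes are annotated in the count table as polymorphic pseudogenes, which are translated in some strains only. Zbp1, a sensor of Z-form nucleic acid, was at 0 in all 8 libraries, which allows up to 3 counts in each. Mx1 had 0 counts in every WT library and in FIH-KO normoxia, and 2 and 1 in FIH-KO hypoxia. Mx2 had 0 and 0 counts in WT normoxia, 1 and 1 in FIH-KO normoxia, 0 and 1 in WT hypoxia and 2 and 1 in FIH-KO hypoxia. Cmpk2, a mitochondrial nucleotide kinase next to Rsad2, had 0 to 3 counts in each library. For 12 of these genes no difference between the genotypes was detectable at this depth. The exceptions were Oasl1 in normoxia and Oasl2. Their intervals were chosen after the values were seen and are not adjusted for the number of genes. Oasl1, an OAS-like protein, had 1 count over both WT normoxia libraries and 12 over both FIH-KO normoxia libraries. That is a CPM ratio of 11.2 whose exact 95% interval ran from 1.66 to 480 and covers counting error only. In hypoxia Oasl1 had 1 count in WT and 4 in FIH-KO cells (ratio 4.14, interval 0.41 to 204). Oasl2 had 1 count in WT normoxia and 8 in FIH-KO normoxia (ratio 7.49, interval 1.00 to 332), and 2 in WT hypoxia and 12 in FIH-KO hypoxia (ratio 6.21, interval 1.38 to 57.2).

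Per kilobase of exon, the highest mean level belonged to Trim25 (17.4 CPM per kb), followed by Eif2ak2 (13.3), Bst2 (9.40), Isg20 (8.33) and Adar (7.62). Isg15 stood at 1.09 CPM per kb and Oas3 at 0.367. The summed level of the 45 genes was 422 and 424 CPM in the WT normoxia libraries, 573 and 543 in FIH-KO normoxia, 389 and 411 in WT hypoxia and 518 and 542 in FIH-KO hypoxia. The FIH-KO sums were above the WT sums at both oxygen levels. In bulk RNA, fewer cells with a transcript and less of it per cell cannot be told apart.

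**Figure D1:**
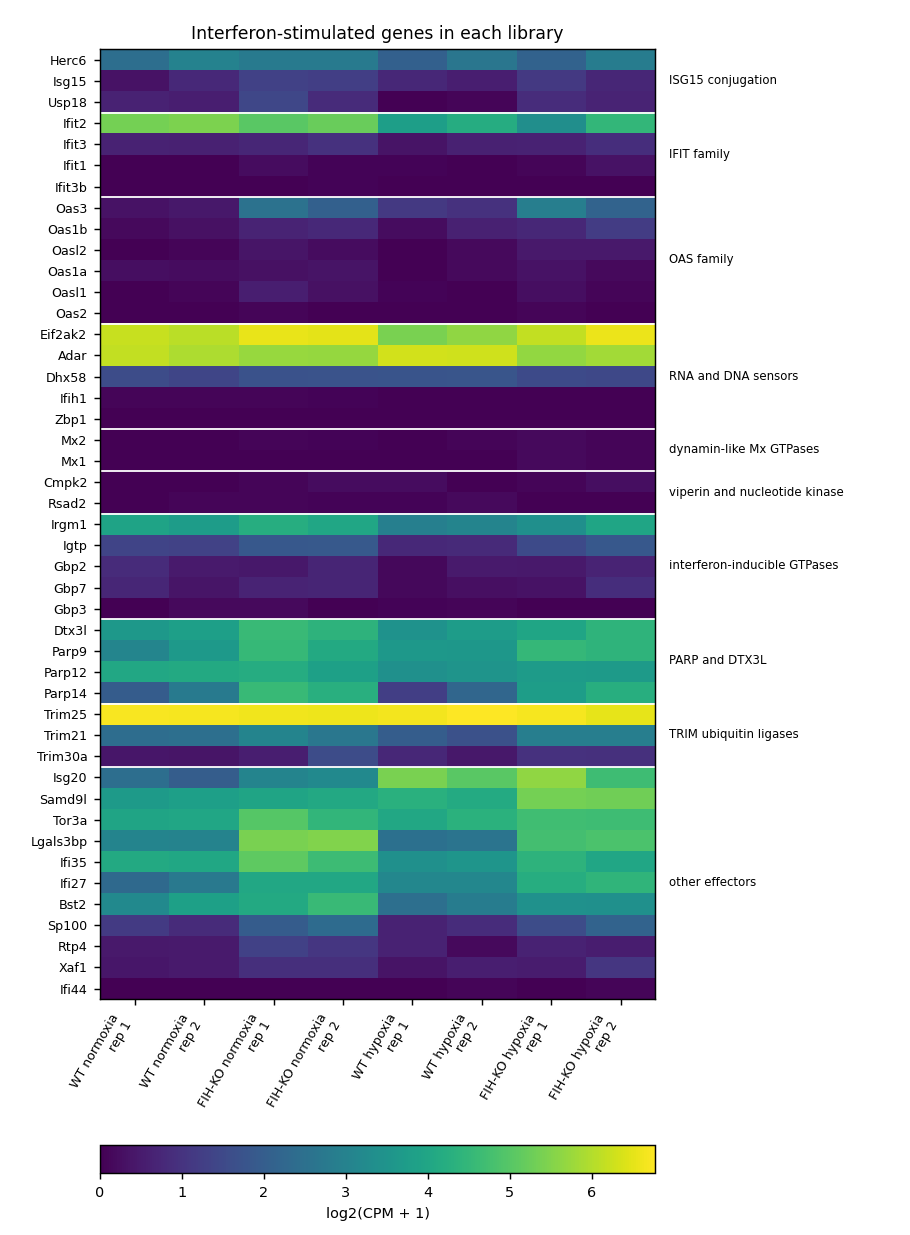
Level of each of the 45 genes (lines, grouped by role) in each of the 8 libraries (columns), as log2(CPM + 1). Trim25, Eif2ak2 and Adar are the brightest lines, most of the OAS family and all Mx genes are near 0, and Lgals3bp, Parp14 and Oas3 are brighter in the FIH-KO columns.

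The first question was which of these genes differed between FIH-KO and WT cells. Of the 31 tested, 14 rose in FIH-KO cells in normoxia and 15 in hypoxia, and 9 rose at both oxygen levels: Lgals3bp, Oas3, Parp14, Parp9, Dtx3l, Ifi27, Ifi35, Bst2 and Sp100. Isg15, Trim30a, Isg20, Rtp4 and Tor3a passed the test in normoxia alone and Usp18, Eif2ak2, Igtp, Irgm1, Trim21 and Samd9l in hypoxia alone, which does not show that their effects differ. Adar was lower in FIH-KO than in WT cells in hypoxia. Except where hypoxia is compared with normoxia, a rise or fall below is FIH-KO over WT at the oxygen level named. Over all 13933 genes tested, 15.2% rose and 13% fell in normoxia, and 14.1% rose and 13.9% fell in hypoxia. The median log2 fold change, FIH-KO over WT, was 0.82 for the 31 genes in normoxia and 0.83 in hypoxia, against medians of -0.0025 and -0.03 over all tested genes. Because the members were chosen with earlier results known, their distance from all genes is not independent of these data. No member fell in normoxia by edgeR or by DESeq2, and 1 (Adar) had an unadjusted p under 0.05 there.

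The counts changed when 1 library was left out. A fit with 1 library left in a group has less power, so a lost call need not mean a changed effect. The share of all genes called in such fits is not given here. Counts from them therefore cannot be set against the shares of the full fit. In normoxia 5 members rose without WT normoxia replicate 1, 7 without WT normoxia replicate 2, 7 without FIH-KO normoxia replicate 1 and 9 without FIH-KO normoxia replicate 2. In hypoxia 8 rose without WT hypoxia replicate 1. Without FIH-KO hypoxia replicate 1 or replicate 2, Adar also fell in normoxia (-0.35 and -0.33), and without FIH-KO hypoxia replicate 2, Ifit2 fell in hypoxia (-0.71) beside Adar. Lgals3bp, Oas3, Parp14 and Ifi27 rose at both oxygen levels with any 1 library left out and under every other setting that tested them.

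**Figure D2:**
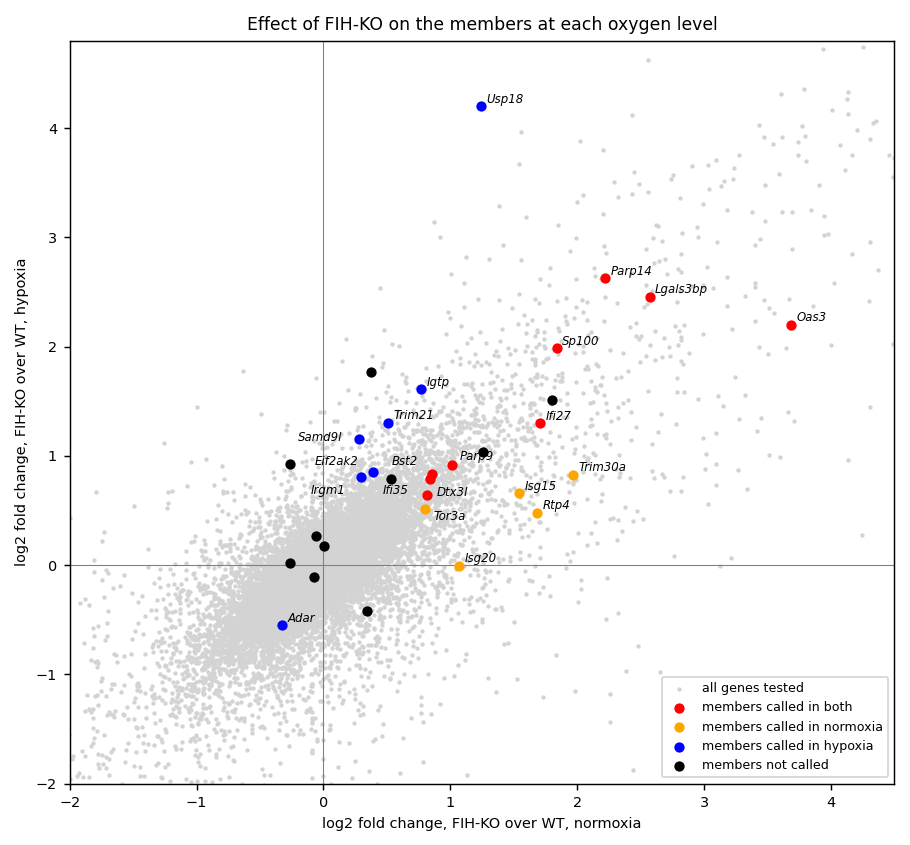
Log2 fold change of FIH-KO over WT in normoxia (horizontal axis) and in hypoxia (vertical axis) for the 31 tested members (coloured by where their adjusted p was under 0.05) and all tested genes (grey, those beyond the axis limits not drawn). The 9 members called at both levels lie up and to the right of the crossing of the zero lines, and Usp18 at 4.20 in hypoxia has a WT group of 0 and 1 counts.

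Lgals3bp (ENSMUSG00000033880.12, chromosome 11, 118280716 to 118292918) encodes a secreted galectin-binding glycoprotein. It had 7.26 and 7.17 CPM in WT normoxia, 41.9 and 43.9 in FIH-KO normoxia, 4.71 and 5.12 in WT hypoxia and 26.0 and 27.9 in FIH-KO hypoxia. The lowest FIH-KO library was above the highest WT library, and replicates lay close together. Lgals3bp rose by 2.57 on the log2 scale in normoxia (standard error, SE, 0.15, FDR = 8.3e-07), a 5.94-fold difference, and by 2.46 in hypoxia (SE 0.16, FDR = 1.7e-06), a 5.49-fold difference.

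In the OAS family, whose enzymes make 2′-5′ oligoadenylates on double-stranded RNA and thereby activate RNase L, Oas3 and Oas1b could be tested. Oas3 (ENSMUSG00000032661.10, chromosome 5, 120891163 to 120915729) had 0.257 and 0.355 CPM in WT normoxia, 4.88 and 3.25 in FIH-KO normoxia, 1.18 and 0.956 in WT hypoxia and 6.43 and 3.45 in FIH-KO hypoxia. The WT normoxia values came from 4 and 6 counts, and the genotypes did not overlap at either oxygen level. Oas3 rose by 3.69 on the log2 scale in normoxia (SE 0.49, FDR = 0.00026) and by 2.20 in hypoxia (SE 0.40, FDR = 0.0018). Oas1b is annotated as a polymorphic pseudogene, so a working enzyme cannot be assumed, and it has near-identical Oas1 copies beside it. Its log2 fold changes were 1.80 (FDR = 0.080) and 1.51 (FDR = 0.085), with FIH-KO libraries of 10 to 20 counts and WT libraries of 2 to 8.

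The PARP group holds ADP-ribosyltransferases, and PARP9 works as a dimer with the ubiquitin ligase DTX3L. Of these genes, Parp14, Parp9 and Dtx3l lie together on chromosome 16 between 35653231 and 35792980, and each rose at both oxygen levels. Parp14 had 2.96 and 5.75 CPM in WT normoxia, 22.6 and 18.2 in FIH-KO normoxia, 1.40 and 3.69 in WT hypoxia and 12.7 and 18.03 in FIH-KO hypoxia. Its log2 fold change was 2.22 in normoxia (SE 0.36, FDR = 0.00091) and 2.62 in hypoxia (SE 0.39, FDR = 0.00058), and its FIH-KO libraries were above its WT libraries throughout. Parp9 had 7.52 and 11.4 CPM in WT normoxia and 22.1 and 16.3 in FIH-KO normoxia, a log2 fold change of 1.02 (FDR = 0.0047), and one of 0.92 in hypoxia (FDR = 0.0079). Dtx3l had 11.2 and 13.3 CPM in WT normoxia, 23.3 and 19.9 in FIH-KO normoxia, 9.98 and 12.4 in WT hypoxia and 14.9 and 20.0 in FIH-KO hypoxia. It rose by 0.82 (FDR = 0.0090) in normoxia and 0.65 (FDR = 0.031) in hypoxia. Parp9 and Dtx3l share 458 exon bases on opposite strands, and the strand setting of the counting is not stated, so reads from that stretch cannot be told apart. The normoxia calls of Parp9 and Dtx3l were lost without WT normoxia replicate 1 (0.72 and 0.67) or FIH-KO normoxia replicate 1 (0.76 and 0.68). In hypoxia the call of Parp9 was lost without WT hypoxia replicate 2 (0.90) and that of Dtx3l without WT hypoxia replicate 1 (0.53) or FIH-KO hypoxia replicate 2 (0.42). Parp12, on chromosome 6, had log2 fold changes of -0.06 and 0.27 (FDR = 0.83 and 0.31).

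Ifi27 (ENSMUSG00000064215.14, chromosome 12, 103392254 to 103407799), a small membrane protein, had 3.98 and 5.63 CPM in WT normoxia, 15.7 and 15.8 in FIH-KO normoxia, 7.85 and 7.78 in WT hypoxia and 17.7 and 20.7 in FIH-KO hypoxia. The genotypes stood apart at both levels. It rose by 1.71 (SE 0.21, FDR = 0.00013) in normoxia and by 1.30 (SE 0.20, FDR = 0.00063) in hypoxia. Sp100, a component of nuclear bodies, had 1.22 and 0.770 CPM in WT normoxia, 2.92 and 4.20 in FIH-KO normoxia, 0.560 and 0.819 in WT hypoxia and 1.999 and 3.45 in FIH-KO hypoxia. It rose by 1.84 (FDR = 0.0057) and 1.98 (FDR = 0.0062), with calls lost without WT normoxia replicate 2 (1.52) and without WT hypoxia replicate 1 (1.76).

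Ifi35, a partner of NMI, had 16.3 and 15.5 CPM in WT normoxia, 32.9 and 24.0 in FIH-KO normoxia, 9.64 and 10.6 in WT hypoxia and 19.7 and 15.1 in FIH-KO hypoxia. It rose by 0.84 in normoxia (FDR = 0.0064) and 0.79 in hypoxia (FDR = 0.012). Bst2 encodes tetherin, which holds budding virus particles at the cell surface. Bst2 had 8.35 and 13.4 CPM in WT normoxia, 16.3 and 23.2 in FIH-KO normoxia, 4.60 and 6.21 in WT hypoxia and 9.68 and 9.503 in FIH-KO hypoxia. It rose by 0.85 in normoxia (FDR = 0.024) and 0.83 in hypoxia (FDR = 0.039). Both genes were higher in every FIH-KO library than in the WT libraries of the same oxygen level. The normoxia call of Ifi35 was lost without WT normoxia replicate 1 (0.84, FDR = 0.053), WT normoxia replicate 2 (0.78) or FIH-KO normoxia replicate 1 (0.57), and its hypoxia call without WT hypoxia replicate 1 (0.75) or FIH-KO hypoxia replicate 1 (0.62). That of Bst2 was lost in normoxia without WT normoxia replicate 1 (0.53) or FIH-KO normoxia replicate 2 (0.55), and in hypoxia with any 1 of the 4 hypoxia libraries left out (0.66 to 1.06). Ifi35 shares 620 exon bases with Vat1 on the other strand.

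**Figure D3:**
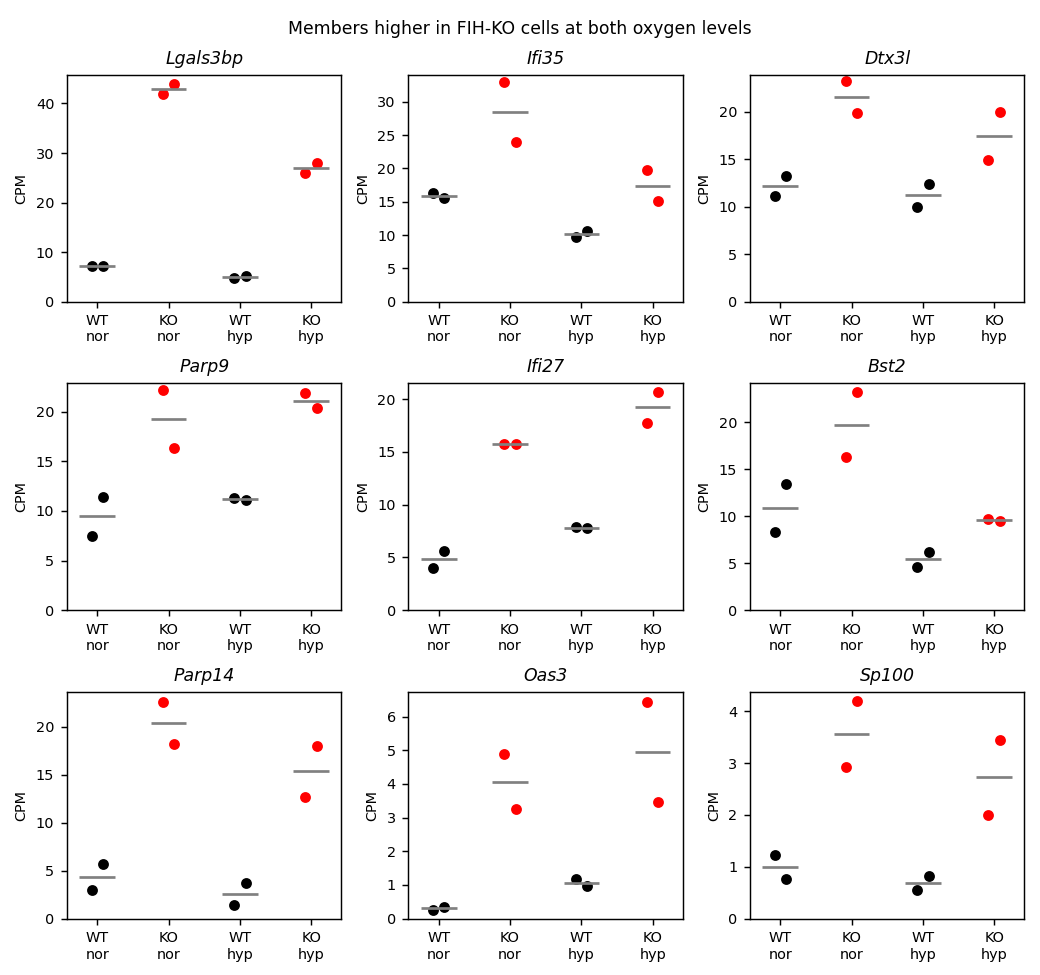
CPM in each library (points) and group means (lines) of the 9 members that rose in FIH-KO cells at both oxygen levels, in WT (black) and FIH-KO (red) cells in normoxia (nor) and hypoxia (hyp). In each panel the red points of an oxygen level lie above the black points of that level.

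Among genes of ISG15 conjugation, Isg15 itself, the ubiquitin-like modifier, had 0.257 and 0.711 CPM in WT normoxia, 1.49 and 1.40 in FIH-KO normoxia, 0.673 and 0.478 in WT hypoxia and 1.19 and 0.651 in FIH-KO hypoxia. The genotypes overlapped in hypoxia. Isg15 rose by 1.54 in normoxia (SE 0.52, FDR = 0.043), was not called with any 1 of the 4 normoxia libraries left out (0.99 to 2.43), without either WT hypoxia library (1.52 and 1.54) or by DESeq2 (1.57), and had a log2 fold change of 0.66 in hypoxia (FDR = 0.40). Usp18, the protease that removes ISG15, had 9 and 8 counts in WT normoxia, 29 and 14 in FIH-KO normoxia, 0 and 1 in WT hypoxia and 13 and 9 in FIH-KO hypoxia. It was higher in FIH-KO hypoxia (FDR = 0.0084), with a CPM ratio of 22.8 and an exact 95% interval of 3.68 to 940 for counting error, and the call was lost without WT hypoxia replicate 1 (FDR = 0.084). In normoxia its log2 fold change was 1.24 (FDR = 0.11). Herc6, the ISG15 ligase of mice, had 4.498 and 7.05 CPM in WT normoxia, 5.78 and 5.82 in FIH-KO normoxia, 3.25 and 5.32 in WT hypoxia and 3.37 and 6.25 in FIH-KO hypoxia, and its genotypes overlapped.

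Of the sensors, Eif2ak2 encodes PKR, the kinase that stops translation on double-stranded RNA. Eif2ak2 (ENSMUSG00000024079.5, chromosome 17, 79159972 to 79190012) had 72.8 and 66.3 CPM in WT normoxia, 93.3 and 88.9 in FIH-KO normoxia, 41.9 and 49.3 in WT hypoxia and 70.4 and 94.1 in FIH-KO hypoxia. The genotypes did not overlap within either oxygen level. The log2 fold change was 0.85 in hypoxia (SE 0.15, FDR = 0.0014), and its 0.39 in normoxia missed the threshold (SE 0.14, FDR = 0.061) but passed it without FIH-KO hypoxia replicate 1 (0.37) or replicate 2 (0.39). Adar (ENSMUSG00000027951.17, chromosome 3, 89622329 to 89660753), whose product edits adenosine to inosine in double-stranded RNA, went the other way. Adar had 69.5 and 60.6 CPM in WT normoxia, 52.3 and 51.3 in FIH-KO normoxia, 78.6 and 76.9 in WT hypoxia and 50.03 and 56.0 in FIH-KO hypoxia. It fell by 0.55 in hypoxia (SE 0.12, FDR = 0.0047), and its value in normoxia was -0.33 (FDR = 0.056). Adar shares 1365 exon bases (16.8% of its exons) with Chrnb2 on the opposite strand. Dhx58 (LGP2), a helicase related to RIG-I, had log2 fold changes of 0.34 and -0.42 (FDR = 0.45 and 0.35).

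Of the interferon-inducible GTPases, which act on the vacuoles of intracellular microbes, Irgm1 had 14.2 and 12.5 CPM in WT normoxia, 17.6 and 15.2 in FIH-KO normoxia, 6.61 and 7.30 in WT hypoxia and 9.43 and 14.8 in FIH-KO hypoxia. Igtp had 1.61 and 1.54, 2.62 and 2.74, 0.729 and 0.751, and 1.87 and 2.67 CPM in the same groups. Both were higher in every FIH-KO library than in WT libraries at the same oxygen level, and both passed the test in hypoxia, Igtp by 1.61 (FDR = 0.0074) and Irgm1 by 0.80 (FDR = 0.021). The normoxia values were 0.77 (FDR = 0.10) and 0.29 (FDR = 0.34). The hypoxia call of Igtp was lost without WT hypoxia replicate 1 (1.62, FDR = 0.051), and that of Irgm1 without WT hypoxia replicate 1 (0.76), WT hypoxia replicate 2 (0.88) or FIH-KO hypoxia replicate 2 (0.45). Gbp2 and Gbp7, guanylate-binding proteins, held 2 to 13 counts per library and were not called, except Gbp7 in hypoxia without FIH-KO hypoxia replicate 1 (2.44).

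Among the TRIM ubiquitin ligases, Trim25, which activates RIG-I, was the most expressed member and had 103 and 102 CPM in WT normoxia, 97.8 and 96.7 in FIH-KO normoxia, 99.6 and 108 in WT hypoxia and 101 and 91.8 in FIH-KO hypoxia. Its log2 fold changes were -0.07 and -0.11, each with an SE of 0.11. Trim21, an antibody receptor in the cytosol, had 4.37 and 4.56 CPM in WT normoxia, 7.32 and 5.43 in FIH-KO normoxia, 3.03 and 2.18 in WT hypoxia and 6.43 and 6.51 in FIH-KO hypoxia. It rose by 1.30 in hypoxia (SE 0.27, FDR = 0.0040), and its value in normoxia was 0.51 (FDR = 0.16). Trim30a had 5 and 5 counts in WT normoxia and 8 and 35 in FIH-KO normoxia, so 1 library carried its log2 fold change of 1.97 (FDR = 0.049), which was 0.59 without FIH-KO normoxia replicate 2. The call of Trim30a was also lost by DESeq2 (1.99) and with any 1 of the WT normoxia, WT hypoxia or FIH-KO hypoxia libraries left out (1.89 to 1.996).

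The remaining effectors were Samd9l, Isg20, Tor3a, Rtp4 and Xaf1. Samd9l (ENSMUSG00000047735.15, chromosome 6, 3372257 to 3405056), a restriction factor of poxviruses, had 12.0 and 13.3 CPM in WT normoxia, 14.6 and 16.1 in FIH-KO normoxia, 18.7 and 16.5 in WT hypoxia and 40.2 and 38.4 in FIH-KO hypoxia. FIH-KO hypoxia stood far above the other 3 groups. The log2 fold change was 1.16 in hypoxia (SE 0.15, FDR = 0.00020) and 0.28 in normoxia (FDR = 0.19). Isg20, a 3′-5′ exonuclease of RNA, rose by 1.07 in normoxia (SE 0.34, FDR = 0.033), lost its call with any 1 of the 4 normoxia libraries left out (0.77 to 1.37), and had a value of -0.01 in hypoxia. Tor3a, an ATPase of the endoplasmic reticulum, had 14.5 and 15.2 CPM in WT normoxia, 30.6 and 21.2 in FIH-KO normoxia, 15.7 and 19.1 in WT hypoxia and 25.2 and 24.5 in FIH-KO hypoxia. It rose by 0.80 in normoxia (FDR = 0.0077) and had 0.51 in hypoxia (FDR = 0.057). The normoxia call of Tor3a was lost without WT normoxia replicate 1 (0.73), WT normoxia replicate 2 (0.81) or FIH-KO normoxia replicate 1 (0.49), and it was called in hypoxia without FIH-KO normoxia replicate 1 or replicate 2 (0.55 each). Rtp4, a receptor chaperone, held 6 and 7 counts in WT normoxia, 25 and 20 in FIH-KO normoxia, 10 and 2 in WT hypoxia and 9 and 7 in FIH-KO hypoxia. Rtp4 rose by 1.68 in normoxia (FDR = 0.036) and lost its call with any 1 normoxia library left out (1.44 to 1.85) and by DESeq2 (1.71). Xaf1 had log2 fold changes of 1.26 and 1.03 (FDR = 0.12 and 0.22).

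In the IFIT family, which binds foreign RNA ends, Ifit2 and Ifit3 of 4 members could be tested and neither was called between the genotypes. Ifit2 (ENSMUSG00000045932.13, chromosome 19, 34527932 to 34554524) had 39.8 and 42.5 CPM in WT normoxia, 32.1 and 36.4 in FIH-KO normoxia, 12.9 and 17.2 in WT hypoxia and 9.12 and 21.4 in FIH-KO hypoxia. Its log2 fold change was -0.27 in normoxia (FDR = 0.50) and 0.02 in hypoxia (FDR = 0.96), where FIH-KO libraries lay on both sides of the WT ones. Ifit3 held 5 to 17 counts, with values of 0.53 and 0.79 (FDR = 0.47 and 0.32), and it is nearly identical to Ifit3b, so its reads are uncertain.

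The members were also read by chromosome. The 5 tested members on chromosomes 3 and 19 (Adar, Gbp2, Gbp7, Ifit2 and Ifit3) had 0 that rose at either oxygen level by edgeR or DESeq2 and 1 higher at an unadjusted p under 0.05 (Gbp7 in hypoxia), and their medians were -0.26 in normoxia and 0.79 in hypoxia on the log2 scale. The 26 on other chromosomes had 14 and 15 that rose, with medians of 0.93 and 0.84. All tested genes of chromosome 3 had medians of -0.36 and -0.41 and those of chromosome 19, which also carries Hif1an, -0.38 and -0.45. In normoxia 35.4% of the tested genes of chromosome 3 and 40.3% of those of chromosome 19 fell, and 5.12% and 5.46% rose. In hypoxia 5.12% and 3.99% rose, so that 0 of 5 members is near the share of these chromosomes. Whether this shift bears on Adar and Ifit2 was not tested.

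The second question was how hypoxia itself moved these genes. Its comparisons share libraries with those of genotype, so their values are set side by side only. In WT cells 4 members rose in hypoxia (Isg20, Oas3, Ifi27 and Samd9l) and 9 fell (Usp18, Ifit2, Igtp, Bst2, Irgm1, Parp12, Ifi35, Eif2ak2 and Lgals3bp). Over all genes tested, 16.9% rose and 15.5% fell. In FIH-KO cells 2 rose (Isg20 and Samd9l) and 4 fell (Ifit2, Bst2, Ifi35 and Lgals3bp), against 8.84% and 8% of all genes. The 6 called in FIH-KO cells were called in the same direction in WT cells. The median log2 fold change, hypoxia over normoxia, was -0.44 in WT and -0.24 in FIH-KO cells for the 31 members, and -0.0011 and -0.03 over all genes. The WT counts changed with any 1 of the 4 WT libraries left out, a fit with less power because 1 library is left in its group. In FIH-KO cells 2 fell without FIH-KO normoxia replicate 1 or without replicate 2.

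Isg20 (ENSMUSG00000039236.19, chromosome 7, 78562598 to 78570153) moved most upward. It had 4.498 and 2.96 CPM in WT normoxia, 41.5 and 32.2 in WT hypoxia, 7.26 and 8.34 in FIH-KO normoxia and 48.9 and 24.5 in FIH-KO hypoxia. The oxygen levels did not overlap in either genotype. Its log2 fold change was 3.31 in WT cells (SE 0.32, FDR = 2.9e-05) and 2.23 in FIH-KO cells (SE 0.29, FDR = 0.00046). Samd9l rose by 1.36 in FIH-KO cells (SE 0.15, FDR = 0.00013) and by 0.48 in WT cells (SE 0.15, FDR = 0.030), where the call was lost with any 1 of the 4 WT libraries left out (0.35 to 0.56) and by DESeq2 (0.47, FDR = 0.054). In WT cells Oas3 rose by 1.78 (FDR = 0.033) and Ifi27 by 0.70 (FDR = 0.025). The Oas3 call was lost with any 1 WT library left out (1.53 to 1.99), and that of Ifi27 without WT normoxia replicate 1 (0.43), WT hypoxia replicate 1 (0.65) or WT hypoxia replicate 2 (0.70).

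Among those that fell, Ifit2 had a log2 fold change of -1.46 in WT cells (SE 0.29, FDR = 0.0026) and -1.17 in FIH-KO cells (SE 0.29, FDR = 0.016), and its FIH-KO call was lost without FIH-KO normoxia replicate 1 (-1.24) or replicate 2 (-1.05). Bst2 fell by 1.02 in WT and 1.04 in FIH-KO cells (FDR = 0.013 and 0.016). Ifi35 fell by 0.66 and 0.71 (FDR = 0.025 and 0.024). Lgals3bp fell by 0.56 and 0.67 (FDR = 0.025 and 0.0066), so that its FIH-KO hypoxia libraries still stood above both WT groups. Calls were again lost with 1 library left out. In WT cells Ifi35 and Lgals3bp were not called with any 1 WT library left out (-0.73 to -0.63 and -0.62 to -0.53). Bst2 in WT cells was not called without WT normoxia replicate 2 (-0.67) or WT hypoxia replicate 1 (-0.85). In FIH-KO cells Bst2 was not called without FIH-KO normoxia replicate 2 (-0.74) or FIH-KO hypoxia replicate 1 (-1.03). Ifi35 in FIH-KO cells was not called without FIH-KO normoxia replicate 1 (-0.44) or FIH-KO hypoxia replicate 2 (-0.53).

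In WT cells, Irgm1 also fell by 0.94 (FDR = 0.0082), Parp12 by 0.68 (FDR = 0.012), Eif2ak2 by 0.61 (FDR = 0.0078) and Igtp by 1.08 (FDR = 0.049). Parp12 had 15.6 and 16.3 CPM in WT normoxia, 9.58 and 10.3 in WT hypoxia, 17.1 and 13.5 in FIH-KO normoxia and 12.1 and 11.8 in FIH-KO hypoxia. Usp18 fell from 9 and 8 counts to 0 and 1 (FDR = 0.016). In FIH-KO cells the log2 fold changes of these 5 genes lay between -0.83 and -0.15 and none was called, except Irgm1 without FIH-KO hypoxia replicate 2 (-0.80). A call in WT cells only does not show that the genotypes differ in their response, and the test of that difference by edgeR called none of these 5 genes. The WT calls were lost for Irgm1 without WT normoxia replicate 1 (-0.89) or WT hypoxia replicate 1 (-0.91), for Parp12 without WT normoxia replicate 2 (-0.68) or WT hypoxia replicate 1 (-0.67), for Eif2ak2 without WT normoxia replicate 1 (-0.58) or WT hypoxia replicate 1 (-0.53), for Usp18 without either WT normoxia library or WT hypoxia replicate 1, and for Igtp without any 1 of the 4 WT or 2 FIH-KO normoxia libraries (-1.15 to -1.10). Trim21, at -0.77 in WT cells (FDR = 0.051), was just over the threshold and passed it with RLE or upper-quartile factors, under both other filters, with the replicate block, with the compared libraries alone and without any 1 FIH-KO library (-0.81 to -0.76). Parp14, at -0.82 (FDR = 0.16), passed it without the filter (-0.83) and without WT hypoxia replicate 2 (-1.64).

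**Figure D4:**
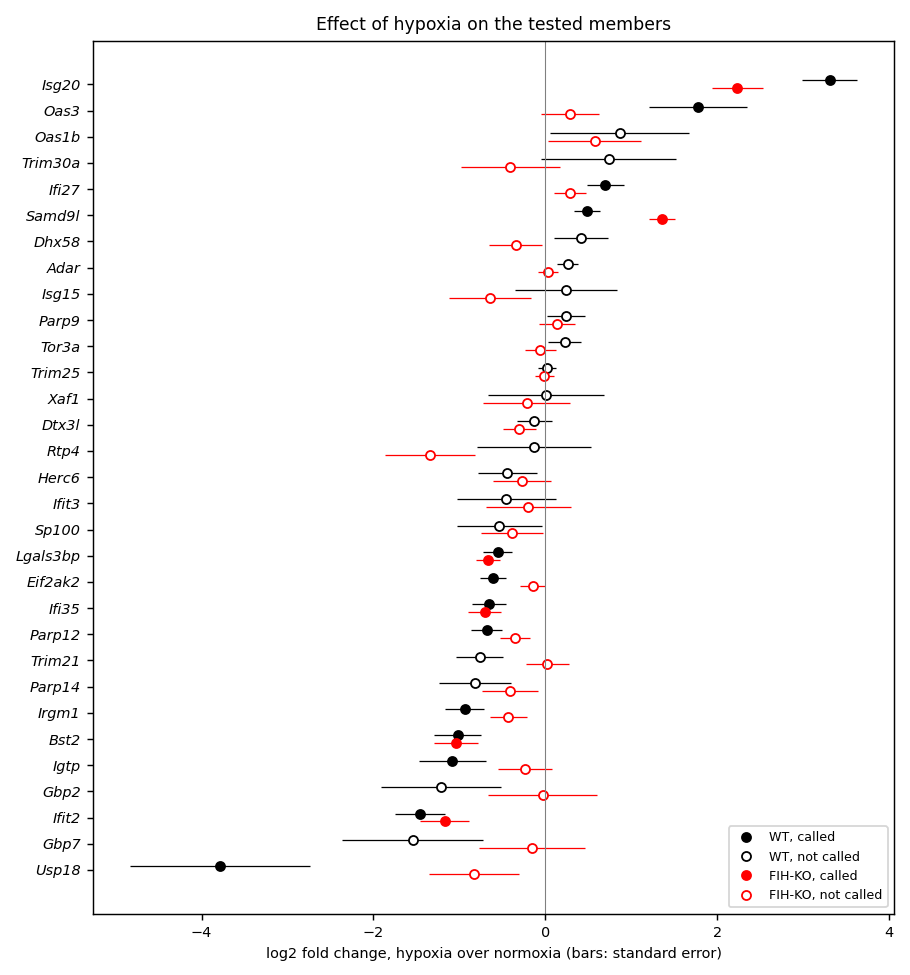
Log2 fold change of hypoxia over normoxia in WT (black) and FIH-KO (red) cells for the 31 tested members, with bars of 1 SE and filled points where the adjusted p was under 0.05. Isg20 lies furthest right in both genotypes, and Ifit2, Bst2, Ifi35 and Lgals3bp have filled points on the left in both.

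The third question was whether the effect of FIH-KO differed between the oxygen levels. edgeR called 0 of the 31 members in either direction, and 0% and 0% of all genes (percent higher and lower). By edgeR 5 members had an unadjusted p under 0.05, as had 6.64% of all genes tested. DESeq2 called 0 members and 37 of all genes. By DESeq2 3 members had an unadjusted p under 0.05, as had 2.78% of all genes with a p. The smallest adjusted p among the members was that of Samd9l, at 0.35 by edgeR, where the effect of FIH-KO was 0.87 larger in hypoxia on the log2 scale (SE 0.21). The other 4 were Isg20 (-1.08), Oas3 (-1.49), Usp18 (2.96) and Eif2ak2 (0.46). Isg20 was called (FDR = 0.038) when every gene with at least 1 read was kept.

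The other genes of the pathway were followed as a list of 92, of which 88 were in the table under the symbol used and 53 were tested. In FIH-KO cells 22 rose and 3 fell in normoxia, and 25 rose and 4 fell in hypoxia. With hypoxia, 7 rose and 8 fell in WT cells and 2 rose and 2 fell in FIH-KO cells. Of all genes tested, 15.2% rose and 13% fell in FIH-KO cells in normoxia, and 14.1% rose and 13.9% fell in hypoxia. With hypoxia, 16.9% of all genes rose and 15.5% fell in WT cells and 8.84% rose and 8% fell in FIH-KO cells. The 7 and 8 pathway genes called in WT cells are 13.2% and 15.1% of the 53, near those shares. These shares belong to the full fit and give no reference for the counts with 1 library left out. With 1 library left out, 10 (FIH-KO normoxia replicate 1), 11 (WT normoxia replicate 2) or 12 (WT normoxia replicate 1) rose in normoxia at the lowest, and in hypoxia 12 (WT hypoxia replicate 1) or 13 (WT hypoxia replicate 2). Of those that fell, 0 were left in normoxia without either WT normoxia library or FIH-KO normoxia replicate 1, and 2 in hypoxia without either WT hypoxia library or FIH-KO hypoxia replicate 2. With hypoxia, 2 rose and 1 fell in WT cells without WT normoxia replicate 2, and 0 fell in FIH-KO cells without FIH-KO normoxia replicate 1. Of 10 interferon genes (Ifnb1, Ifna1, Ifna2, Ifna4, Ifna5, Ifne, Ifnk, Ifng, Ifnl2 and Ifnl3), 9 were at 0 in every library and Ifna2 held 1 read in WT hypoxia replicate 1.

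Of the receptors, Ifngr1, the ligand-binding chain for interferon gamma, rose by 0.91 and 0.79 (FDR = 0.00081 and 0.0019), and Il10rb, the chain that interferon lambda shares with interleukin 10, by 0.95 and 0.97 (FDR = 0.0092 and 0.0084). Ifnar1 and Ifnar2, the type I receptor, had values between 0.25 and 0.34 that were not called, Ifngr2 had -0.16 and -0.22, and Ifnlr1 was at 0. The kinase Jak1 rose by 0.87 and 0.84 (FDR = 0.00070 and 0.00095). Stat2 had 228 and 259 counts in WT normoxia and 702 and 509 in FIH-KO normoxia, and rose by 1.23 in normoxia and 1.22 in hypoxia (FDR = 0.00067 and 0.00074). Jak2, on chromosome 19, was lower by 0.44 in FIH-KO than in WT cells in hypoxia (FDR = 0.017), and Tyk2 was not called. Ifngr1, Jak1 and Stat2 kept their calls at both oxygen levels under every setting run. Il10rb lost its call without WT normoxia replicate 2 (0.76) or FIH-KO normoxia replicate 1 (0.75) in normoxia and without WT hypoxia replicate 1 (0.84) in hypoxia. Jak2 lost its hypoxia call without WT hypoxia replicate 1 (-0.46), WT hypoxia replicate 2 (-0.37), FIH-KO hypoxia replicate 1 (-0.33) or either WT normoxia library (-0.40 each).

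Among the interferon regulatory factors, Irf7, the main amplifier of type I interferon, had 1 and 5 counts in WT normoxia, 49 and 24 in FIH-KO normoxia, 4 and 2 in WT hypoxia and 12 and 20 in FIH-KO hypoxia. It rose by 3.47 in normoxia (FDR = 0.0025) and by 2.43 in hypoxia (FDR = 0.027). Irf1 rose by 0.65 and 0.64 (FDR = 0.010 and 0.011) and Irf2 by 0.55 and 0.47 (FDR = 0.0097 and 0.023). Irf8, a factor of myeloid cells, fell by 1.70 and 2.26 (FDR = 0.018 and 0.0020). Irf7 kept its normoxia call under every setting, and its hypoxia call was lost without WT hypoxia replicate 1 (2.87), WT hypoxia replicate 2 (2.16) or FIH-KO hypoxia replicate 2 (1.99). The normoxia calls of Irf1, Irf2 and Irf8 were each lost without WT normoxia replicate 1 (0.55, 0.47 and -1.81), WT normoxia replicate 2 (0.70, 0.58 and -1.63) or FIH-KO normoxia replicate 1 (0.48, 0.39 and -1.46). In hypoxia Irf8 kept its call, Irf1 lost it without WT hypoxia replicate 2 (0.55), and Irf2 without WT hypoxia replicate 1 (0.47), WT hypoxia replicate 2 (0.50) or FIH-KO hypoxia replicate 1 (0.44). Irf3, Irf5 and Irf9 were not called between the genotypes, and Irf9 rose with hypoxia in WT cells (0.71, FDR = 0.035), a call lost without WT normoxia replicate 2 (0.42), WT hypoxia replicate 2 (0.50) or either FIH-KO normoxia library (0.67 each).

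In the other classes, Uba7, the enzyme that activates ISG15, had 9 and 9 counts in WT normoxia, 116 and 89 in FIH-KO normoxia, 18 and 14 in WT hypoxia and 62 and 84 in FIH-KO hypoxia, and rose by 3.40 and 2.24 (FDR = 6.3e-05 and 0.00066). Apol9a held 1 and 1 counts in WT normoxia and 14 and 11 in FIH-KO normoxia, and Trim12c rose by 2.18 in normoxia (FDR = 0.0078). Socs3 and Ptpn6, which restrain JAK and STAT signalling, rose by 0.92 and 0.61 in normoxia and by 0.68 and 0.75 in hypoxia. Ptpn11 fell by 0.38 in normoxia (FDR = 0.050, just under the threshold). The kinase Ikbke rose by 1.02 and 0.61, and Mavs, the adaptor of RNA sensing at mitochondria, by 0.54 and 0.46. Uba7 kept its calls under every setting, as did Socs3 and Ikbke in normoxia. The other normoxia calls named with Uba7 were lost without FIH-KO normoxia replicate 1 (Trim12c 1.54, Apol9a 3.15, Ptpn6 0.44, Ptpn11 -0.21 and Mavs 0.40). Without WT normoxia replicate 1 those of Trim12c (1.85), Apol9a (3.42), Ptpn6 (0.54) and Ptpn11 (-0.36) were lost, and without WT normoxia replicate 2 those of Apol9a (3.32), Ptpn6 (0.63), Ptpn11 (-0.45) and Mavs (0.44). In hypoxia Socs3 (0.56), Ptpn6 (0.63) and Ikbke (0.67) lost their calls without WT hypoxia replicate 2, Ikbke (0.59) and Mavs (0.39) without WT hypoxia replicate 1, Ikbke (0.56) without FIH-KO hypoxia replicate 1, and Mavs (0.38) without FIH-KO hypoxia replicate 2.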

How the data were processed

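The deposited values are raw counts of reads per gene, which the authors made from paired-end stranded mRNA libraries by alignment to GRCm39 with STAR and counting with HTSeq, without normalization. The submitters' processing notes also list GRCm38 and DESeq2. The annotation release, strand setting and handling of multi-mapped reads are not given in the sources used here. All 8 library columns were used, with groups from the sample titles and the culture time from the study's text.

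Counts were analysed with edgeR 4.0.16 in R 4.3.3 (filterByExpr by group, TMM, 1 quasi-likelihood model with a mean per group, Benjamini-Hochberg adjustment over 13933 genes, threshold 0.05), and CPM uses the TMM-scaled library sizes. The common biological coefficient of variation was 11.7%. DESeq2 1.42.0, RLE and upper-quartile factors, 2 filters, the compared libraries alone, a replicate term and each library left out were the alternatives. The code was run on simulated counts with known fold changes, which checks the code and not the calls made here. Positions and promoters are from GENCODE and the GRCm39 reference, in which 52610 of 53700 identifiers and all 45 members were found. Tables and plots used pandas 2.3.3 and matplotlib 3.10.9 in Python 3.11.15.

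Any member could be named. Values per library were set for the highest member of each class, the 8 members of largest fold change per genotype comparison with a mean of 10 or more counts, and members called with hypoxia. Of the other pathway genes, all ligands, receptors, kinases, STATs and IRFs could be named, and at most 3 called genes of each other class. The members and lists were chosen with earlier results of these data known. Chromosomes 3 and 19 were set apart for that reason, and no p was computed over a list. The values of 1 pathway gene are not reported here, though the pathway counts include it.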

Additional observations from a re-analysis of the deposited data

How the results depend on the processing

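The deviations of same-numbered libraries correlated between -0.01 and 0.19 over the 6 pairs of groups, highest between WT hypoxia and FIH-KO hypoxia. Whether replicate numbers pair the libraries was not tested. With the replicate block 15 members rose in FIH-KO cells in normoxia and 15 in hypoxia, Oas1b (1.83) and Trim21 in WT hypoxia (-0.78) gained a call and Igtp in WT hypoxia lost one (-1.08), and Ifit2 in hypoxia turned to -0.0261. With 1 library left out, the members that rose numbered 5 to 14 in normoxia and 8 to 16 in hypoxia, and those that fell 0 to 1 and 1 to 2. With hypoxia 1 to 4 rose and 1 to 10 fell in WT cells, and 2 to 2 rose and 2 to 4 fell in FIH-KO cells. With the compared libraries alone, Irgm1 (0.83) and Dtx3l (0.67) in hypoxia, and Lgals3bp in WT (-0.55) and Ifi35 in FIH-KO cells (-0.68) with hypoxia, lost their calls, and Oas1b (1.81) and Eif2ak2 (0.39) in normoxia and Trim21 (-0.76) with hypoxia in WT cells gained one. DESeq2 lost Isg15, Trim30a and Rtp4 in normoxia, and Igtp (-1.11) and Samd9l (0.47) with hypoxia in WT cells. Under the other settings 10 to 15 and 12 to 16 members rose in FIH-KO cells. Adar, 1 member, fell in normoxia with at least 10 counts in every library or with the compared libraries alone, and 1 member (Isg20) had a smaller effect in hypoxia than in normoxia without the filter. The values that changed sign belonged to differences not called: Herc6 in normoxia -0.0093 with upper-quartile factors and -0.0112 with at least 10 counts, and Isg20 in hypoxia 0.0145 with DESeq2, 0.00331 with RLE factors, 0.00537 with upper-quartile factors, 0.0286 without the filter, 0.00988 with at least 10 counts and 0.0215 with the compared libraries alone. With 1 library left out, the log2 fold changes that changed sign ran in normoxia from -0.31 to 0.34 (Herc6), -0.73 to 0.21 (Gbp2), -0.11 to 0.99 (Gbp7) and -0.26 to 0.0782 (Parp12), in hypoxia from -0.33 to 0.60 (Herc6), -0.71 to 0.56 (Ifit2), -0.55 to 0.41 (Isg20) and -0.13 to 1.87 (Rtp4), and with hypoxia in FIH-KO cells from -0.21 to 0.66 (Oas3), -0.38 to 0.0719 (Eif2ak2) and -0.52 to 0.0188 (Igtp). The cause was not tested, and 2 libraries per group limit what can be called.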

Other observations

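Of the 23 tested genes in the class of other interferon-stimulated genes on the pathway list, 11 rose and 1 fell in FIH-KO cells in normoxia and 10 rose and 2 fell in hypoxia. Over all genes tested, 15.2% rose and 13% fell in normoxia, and 14.1% rose and 13.9% fell in hypoxia. The genes named here were picked after their values were seen. Ifi204, a DNA-binding protein of the p200 family, had 71 and 72 counts in WT normoxia, 187 and 156 in FIH-KO normoxia, 695 and 474 in WT hypoxia and 1766 and 999 in FIH-KO hypoxia. It rose with hypoxia by 3.01 in WT and 3.14 in FIH-KO cells on the log2 scale (adjusted p = 1.4e-05 and 6.2e-06, edgeR), and in FIH-KO cells by 1.17 in normoxia and 1.30 in hypoxia (adjusted p = 0.0070 and 0.0011). The normoxia call was lost without WT normoxia replicate 2 (1.10) or FIH-KO normoxia replicate 1 (0.96). Parp10, an ADP-ribosyltransferase like the members of the PARP group, rose in FIH-KO cells by 0.90 in normoxia and 0.89 in hypoxia (adjusted p = 0.0014 and 0.0016), with calls kept under every setting run. Oas1c, a copy in the Oas1 cluster, had 10 and 22 counts in WT normoxia and 75 and 47 in FIH-KO normoxia, and rose by 1.84 in normoxia and 2.42 in hypoxia (adjusted p = 0.0065 and 0.0055). Its normoxia call was lost without WT normoxia replicate 1 (1.41) or FIH-KO normoxia replicate 1 (1.40). Of the genes that fell, Nlrc5, a regulator of MHC class I genes, was lower by 1.08 in FIH-KO than in WT cells in hypoxia (adjusted p = 0.011). That call was lost without WT hypoxia replicate 1 (-0.91) or FIH-KO hypoxia replicate 2 (-0.94). Ifitm3, a membrane protein that blocks virus entry, was lower by 0.50 in FIH-KO than in WT cells in hypoxia (adjusted p = 0.013). Its call was lost without WT hypoxia replicate 2 (-0.41) or FIH-KO hypoxia replicate 2 (-0.36). Pnpt1, a mitochondrial exoribonuclease, fell in normoxia by 0.35 (adjusted p = 0.027), a call lost without the filter (-0.33), either WT normoxia library (-0.31 and -0.45) or FIH-KO normoxia replicate 1 (-0.35).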
